A study of Homo sapiens with 14 samples.

Results

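RNA held on active ribosomes was compared with total RNA in F3, a mutant line of the human acute myeloid leukaemia cell line OCI-AML2. The comparison rests on 4 of the 14 libraries of the study, 2 made from RNA captured by RiboLace (replicates 1 and 2) and 2 made from total RNA (numbered 2 and 3 in the labels), all chosen by their labels and not by a measured value. F3 carries the premature stop R174* on 1 allele of RUNX1, a gene for a transcription factor that blood-forming cells need. It is 1 line, so line and mutation cannot be told apart. Both F3 RiboLace libraries are labelled None for treatment. The F3 total RNA libraries are labelled as 8 h controls, while another of their labels gives 0 h. Per the labels' protocols control cells received DMSO, so assay and control treatment cannot be told apart. Wild-type OCI-AML2, with 2 RiboLace and 2 total RNA libraries that are all labelled None for treatment, was used to see where F3 differed. Another label of the wild-type total RNA libraries also gives 0 h, while RiboLace libraries of both lines carry no hour. No label says that replicates came from separate cultures, so p-values measure the spread between these libraries, which may be technical.

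RiboLace captures ribosomes with a tethered analogue of puromycin, a drug that enters the site of the growing peptide. RNA on ribosomes that are elongating is therefore enriched over RNA that is free, stored or held in the nucleus. Long reading frames have room for many ribosomes, and mRNAs that start with a run of pyrimidines (5′ TOP mRNAs, which encode the translation machinery) are translated according to growth signals through mTOR. A difference between the assays is a change in representation among counted reads, not a rate of protein synthesis.

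The F3 RiboLace libraries held 1192811 and 465052 counts and the total RNA libraries 20112746 and 21334260. At least 10 reads were counted for 9837 and 7208 genes in RiboLace and for 13501 and 13459 genes in total RNA. Log CPM (the usual scaling of counts to library size) correlated across genes with r = 0.930 between the RiboLace libraries and 0.998 between the total RNA libraries. Levels are given as CPM of the scaled library size, in the order RiboLace 1 and 2, then total RNA 2 and 3. Differences are log2 values of RiboLace minus total RNA with their standard error (SE), and calls were made by edgeR's quasi-likelihood test at a Benjamini-Hochberg adjusted p under 0.05 over all genes tested. The fit assumes the same spread per gene in both assays.

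RUNX1 itself had 145.3 and 135.7 CPM in RiboLace and 74 and 77.2 CPM in total RNA. It was 0.90 ± 0.18 higher in RiboLace (log2 difference ± SE, edgeR adjusted p = 0.000191), with no overlap between the assays. Counts per gene do not separate the mutant from the intact allele. The labelled cell type was checked with 26 myeloid markers, of which 21 had at least 10 reads in both total RNA libraries, among them the granule genes AZU1, PRTN3 and CTSG, while CD34, KIT and IL3RA had no read in any of the 4 libraries. Of 20 erythroid markers 12 were unread in all 4, including HBB and HBA1, and 4 had at least 10 reads in both total RNA libraries, led by CA2 (4466 and 4913 reads) and GYPC (1844 and 2083 reads). Of 24 lymphoid markers 7 were unread and 7 had at least 10 reads, and of 16 megakaryocyte markers 4 were unread and 5 had at least 10 reads. Of 22 adherent and stromal markers 10 were unread, including EPCAM, KDR and COL1A2, and 5 had at least 10 reads, led by PDGFRB (179 and 166 reads).

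The RNA types differed first of all. Protein-coding genes took 74.8% and 77.1% of the counts in RiboLace and 97.8% and 98.0% in total RNA. The remaining RiboLace counts lay on several other types. Transcripts annotated as miRNA took 9.03% and 4.67%, misc_RNA (Y RNAs, 7SL-like and similar short RNAs) 3.29% and 3.58%, snRNA 2.43% and 2.92%, processed pseudogenes 2.11% and 2.00%, mitochondrial rRNA 1.83% and 2.35%, snoRNA 1.78% and 2.17%, and rRNA pseudogenes 1.63% and 1.51%. In total RNA the largest of these were mitochondrial rRNA at 0.812% and 0.654% and processed pseudogenes at 0.269% and 0.271%. All RiboLace shares of these types lay above both total RNA shares. Whether ribosomal RNA was removed or poly(A) RNA selected is not given in the sources used here, and the part of library making in these shares was not tested.

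**Figure D1:**
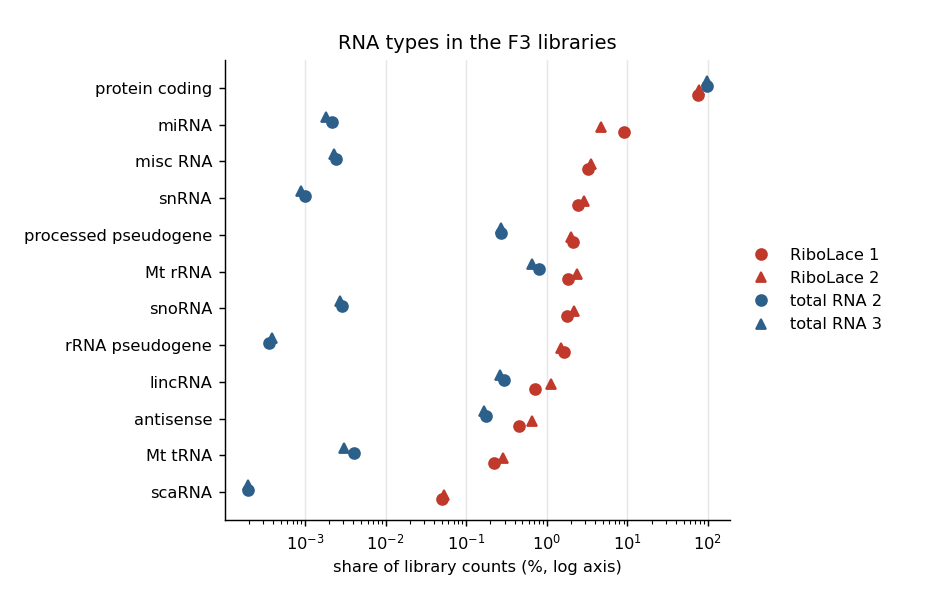
Share of each library's counts by annotated RNA type (log axis), with 1 point per F3 library. The points for protein-coding genes lie close together near 75% to 98%, whereas snRNA, snoRNA, misc_RNA and rRNA pseudogenes lie at 1.5% to 3.6% in RiboLace and below 0.01% in total RNA.

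Across all 15338 genes tested, 7548 (49.2%) were called, of which 4063 (26.5%) were higher and 3485 (22.7%) lower in RiboLace. Without RiboLace replicate 1 the counts were 2561 and 2118, and 160 of the calls turned direction. Genes of RNA types other than protein-coding were mostly higher. Of 3489 tested, 1782 (51.1%) were higher and 188 (5.39%) lower, and 785 had no read in total RNA. Of 140 snRNA genes 138 were higher, of 129 snoRNA genes 127, of 245 misc_RNA genes 238, of 59 rRNA pseudogenes 57 and of 1284 processed pseudogenes 813, with 62 lower. Among the listed small RNAs, 129 of 131 U RNAs of the spliceosome were higher, 59 of 60 C/D box snoRNAs (guides of ribose methylation) and 64 of 64 H/ACA box snoRNAs and scaRNAs (guides of pseudouridylation). The filter kept 131 of 1759 annotated U RNA genes, 60 of 278 C/D and 64 of 172 H/ACA genes. Of those kept, 108, 16 and 18 had no read in total RNA. Unread there were also 112 of the snRNA, 42 of the snoRNA and 199 of the misc_RNA genes above. Such genes could only be higher, so their counts are no independent support for the direction. The fitted medians of the U RNA, C/D and H/ACA lists, 10.14, 8.24 and 9.75, rest partly on genes unread in total RNA. With those genes at their bound (a floor of 3 reads over the 2 libraries) the medians were 7.96, 7.70 and 8.13. Long noncoding RNAs moved less, with 114 higher and 32 lower of 404 lincRNAs and a median of 0.61.

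Several noncoding RNAs took large counts in RiboLace. MIR6087, annotated as a miRNA, had 107308 and 21569 reads in RiboLace and 0 in both total RNA libraries, so it was at least 1090000-fold higher. It alone took 9.0% and 4.64% of the RiboLace counts, at 92830 and 43690 CPM, so the replicates differed in it. RNY1, a Y RNA that binds the Ro protein, had 7438 and 3681 CPM against 0 reads in total RNA and was at least 88000-fold higher. The 5S rRNA pseudogene RNA5SP248 (7158 and 6776 CPM) and the Y RNA copies RNY1P13 (2901 and 3701 CPM) and RF00019 (2513 and 3594 CPM) were also unread in total RNA. The processed pseudogene AC010970.1 had 9537 and 6408 CPM against 0. SNORD67 had 1350 and 1400 CPM against 0.292 and 0.094 CPM, and SNORA31 had 1728 and 2206 CPM against 0 reads.

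The transcripts of 4 such RNAs are printed because they show what was read in RiboLace and hardly in total RNA: short noncoding RNAs that do not carry a reading frame for the ribosome. Sequences are from GENCODE release 29 (GRCh38, transcript strand, 5′ to 3′, with T for U), and capitals mark the sequence element that defines each class. RNY1 lies at chr7:148987136-148987248 (minus strand), with no capitals. SNORD67 lies at chr11:46762389-46762499 (minus), with its C box TGATGA and D box CTGA in capitals. SNORA31 lies at chr13:45337480-45337609 (minus), with its ACA box in capitals. RNU4ATAC, the U4 RNA of the minor spliceosome, lies at chr2:121530881-121531007 (plus), with the AATTTTTGG stretch of its Sm site in capitals.
RNY1: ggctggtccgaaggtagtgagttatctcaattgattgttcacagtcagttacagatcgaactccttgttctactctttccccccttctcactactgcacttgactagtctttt
SNORD67: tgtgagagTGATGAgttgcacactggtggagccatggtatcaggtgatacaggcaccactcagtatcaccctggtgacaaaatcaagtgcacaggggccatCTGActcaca
SNORA31: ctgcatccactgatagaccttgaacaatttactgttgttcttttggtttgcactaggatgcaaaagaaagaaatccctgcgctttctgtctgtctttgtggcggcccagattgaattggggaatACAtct
RNU4ATAC: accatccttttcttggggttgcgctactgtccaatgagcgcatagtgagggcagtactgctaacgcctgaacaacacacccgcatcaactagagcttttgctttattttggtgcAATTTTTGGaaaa

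Some noncoding genes went the other way. The ribosomal protein pseudogenes RPS28P7, RPL13AP5, RPSAP58 and RPL18AP3 had 29.3 to 42.5 CPM in each total RNA library and no read in either RiboLace library. At the floor of 3 reads they were at least 22.6-, 22.4-, 21.5- and 16.6-fold lower. The snoRNA host genes, whose spliced RNAs are short-lived and carry ribosomes, were split. GAS5 had 1833 and 2275 CPM in RiboLace and 280.5 and 296.6 CPM in total RNA (log2 difference 2.83 ± 0.20, adjusted p = 5.77e-11). SNHG16 had 93.4 and 123.6 CPM against 284 and 301.8 CPM (−1.47 ± 0.20, adjusted p = 2.24e-06). Counted reads of a host gene and of the snoRNA in its intron were kept as separate genes in the table, and how overlapping reads were assigned is not given in the sources used here.

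Among 11816 protein-coding genes tested, 2271 (19.2%) were higher and 3296 (27.9%) lower in RiboLace, with a median log2 difference of −0.20. The coding length of the annotated transcript ordered these differences. Genes coding for fewer than 300 nucleotides had a median of −0.64, with 25 higher and 84 lower of 210. The medians were −0.58 for 300 to 600 nucleotides, −0.42 for 600 to 1200, −0.21 for 1200 to 2400 and 0.12 for 2400 to 4800. Genes of 4800 nucleotides or more had a median of 0.78, with 313 higher and 29 lower of 575. In wild type the medians of the same classes were −0.21, −0.17, −0.20, −0.15, 0.02 and 0.53, so the 4 shorter classes hardly differed there. By summed exon length the shortest F3 genes departed from the order. Under 1000 bases the median was 0.09, with 44 higher and 27 lower of 136, and for 1000 to 2000 bases it was −0.60. By coding length in F3, short mRNAs were thus under-represented and long mRNAs over-represented among RiboLace reads.

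The order by coding length held in each F3 RiboLace library. Over genes with at least 10 reads in all 4 libraries, RiboLace 1 ran from −0.61 in the shortest to 0.73 in the longest class against the mean of total RNA, and RiboLace 2 from −0.80 to 0.80. The replicates also differed along length, but less. Total RNA 2 over total RNA 3 ran from −0.17 to 0.16, and RiboLace 1 over RiboLace 2 from 0.24 to −0.05. Within genes that have no named pseudogene the medians were −0.37, −0.45, −0.35, −0.18, 0.15 and 0.78, so the order of the 2 shortest classes turned. Without RiboLace replicate 2 these 2 classes also changed places, at −0.59 and −0.60.

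**Figure D2:**
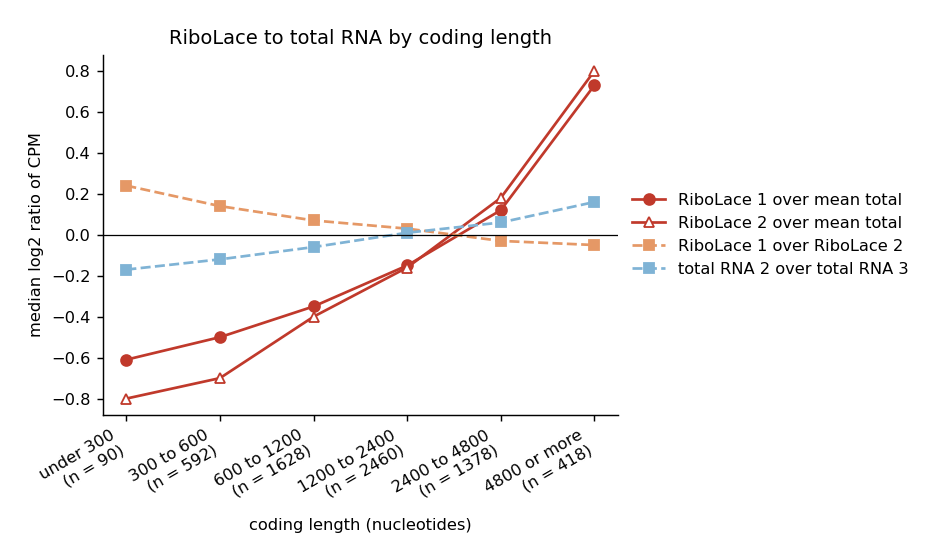
Median log2 ratio of CPM by coding length (nucleotides), over genes with at least 10 reads in all 4 F3 libraries (n per class under the axis). Red lines show each RiboLace library over the mean of total RNA, rising from −0.61 and −0.80 to 0.73 and 0.80; dashed lines show the ratio between replicates of each assay, which stays between −0.17 and 0.24.

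The length of the 3′ UTR (counted here with the stop codon) went with the same direction. Genes with under 200 nucleotides had a median of −0.43 and those with 4000 or more a median of 0.49. The order by coding length was seen within both UTR classes. Where the 3′ UTR was under 1000 nucleotides, the median was −0.67 for coding lengths under 600 and 0.01 for 2400 or more, and where it was longer the medians were −0.45 and 0.51. The order was also seen on both sides of a split by base composition. Composition still varies within each side, and its part was not tested. Below 50% GC in the coding part the medians ran from −0.72 to 0.29, and at 50% or more from −0.47 to 0.24. Of 300 genes with 1 exon, a class that takes in intronless histone genes, 118 (39.3%) were higher and 28 (9.33%) lower. With 2 to 4 exons the shares were 18.4% and 24.3%, near those of all protein-coding genes. Gene length in exons is shared between coding and UTR length, so these are descriptions of correlated properties.

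Proteins of the cytosolic ribosome, encoded by short and abundant 5′ TOP mRNAs, made up the clearest group on the low side. Of 87 tested, 77 (88.5%) were lower and 2 higher, with a median of −2.03. Of all genes 22.7% were lower, and of all protein-coding genes 27.9%. Their summed level was 32840 and 26670 CPM in RiboLace and 106000 and 118700 CPM in total RNA. RPS28 had 5.19 and 10.1 CPM in RiboLace against 577.8 and 622.5 CPM (−6.48 ± 0.31, adjusted p = 6.4e-14). RPS3A had 12.1 and 24.3 CPM against 586.3 and 616.3 CPM, RPS7 45 and 30.4 against 1264 and 1296, and RPL10 50.2 and 66.9 against 1462 and 1611. For these 4 genes both RiboLace values lay far below both total RNA values.
Members also went against the group. RPS23, a protein of the decoding centre, had 594.3 and 437.6 CPM in RiboLace against 263.8 and 330.1 CPM (0.81 ± 0.20, adjusted p = 0.00199), and RPL26 had 114.2 and 121.5 CPM against 78.2 and 89.3 CPM (0.48 ± 0.18, adjusted p = 0.029). Neither overlapped total RNA. RPS23 was not called without RiboLace replicate 1 (0.57, adjusted p = 0.0765), and RPL26 was not called without RiboLace 1, RiboLace 2 or total RNA 2 (0.55, 0.42 and 0.48, adjusted p = 0.112, 0.126 and 0.115).

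Other mRNAs of the TOP class followed the ribosomal proteins. Of 32 tested outside the ribosome 29 (90.6%, beside 27.9% of all protein-coding genes) were lower and none was higher, with a median of −1.26. EEF1A1, the factor that delivers aminoacyl-tRNA to the ribosome (chr6 in GRCh38), had 329.6 and 352.5 CPM in RiboLace and 10710 and 11110 CPM in total RNA (−5.0 ± 0.23, adjusted p = 3.04e-14). NPM1, a nucleolar chaperone of ribosome assembly, had 122 and 127.6 CPM against 2264 and 2525 CPM (−4.27 ± 0.22). EEF2, the translocation factor, is a TOP mRNA that was singled out after its values were seen. It had 10100 and 9193 CPM in RiboLace and 9033 and 9332 CPM in total RNA (0.07 ± 0.21, adjusted p = 0.80), so the assays overlapped. In RiboLace its CPM were far above those of EEF1A1, whereas in total RNA they were slightly below.

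The first transcribed bases of 4 of these genes are printed because the TOP run is what the class shares. Each window is 30 bases around and after the annotated start (RefSeq, GRCh38.p14, gene strand), with the run that begins with C and goes on in C or T in capitals. The windows are chr19:3985438-3985467 for EEF2, chr6:73521007-73521036 for EEF1A1 and chr5:82278329-82278358 for RPS23, all on the minus strand, and chr4:151099624-151099653 on the plus strand for RPS3A.
EEF2: cgttCTCTTCCgccgtcgtcgccgccatcc
EEF1A1: cgttCTTTTTCgcaacgggtttgccgccag
RPS23: ttCTCTCTTTCgctcaggcccgtggcgccg
RPS3A: tccgCCCTTTTggctctctgaccagcacca
All 4 begin in the same way, yet EEF2 and RPS23 were not lower and EEF1A1 and RPS3A were. A C within 4 bases of the start followed by at least 5 pyrimidines was found for 49 of 70 ribosomal protein genes matched to RefSeq (70.0%) and for 1559 of all 14876 matched protein-coding genes (10.5%). Outside the ribosomal and TOP lists, genes with such a start had a median of −0.33 and the others of −0.18. Within the ribosomal proteins the medians were −1.82 with the run and −2.68 without it, so members with the run were not lower than members without it.

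Named pseudogenes, which are copies called after their parent gene, went with the size of the fall. Protein-coding genes without one had a median of −0.14 (24.7% lower), those with 1 of −0.43, with 2 to 4 of −0.81, and with 5 or more of −1.57, with 179 of 241 lower. In this last class the summed level was 44080 and 38340 CPM in RiboLace and 170000 and 187100 CPM in total RNA. Of the 87 ribosomal proteins 79 have a named pseudogene, with a median of −2.16, and the 8 without had a median of −1.29. RACK1, a ribosome-bound scaffold with no named pseudogene, had 1613 and 1220 CPM against 2983 and 3235 CPM (−1.13 ± 0.20).
The summed copies went the other way in several families. The 39 named copies of EEF1A1 summed to 1453 and 1388 CPM in RiboLace and 225.4 and 216.3 CPM in total RNA. Added to the parent, they moved the log2 ratio from −5.0 to −2.66. For HNRNPA1, a splicing factor with 74 copies, the same sum moved it from −4.09 to −1.95, and for RPL21 with 66 copies from −4.84 to −1.12. For LDHA the sum moved it from −3.38 to −3.29, and for TMSB4X from −4.41 to −4.10. Over all ribosomal proteins the parents' summed ratio was −1.92 and that of parents with copies −1.78. How reads that match several places were counted is not given in the sources used here, and the part of this in the values was not tested.

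**Figure D3:**
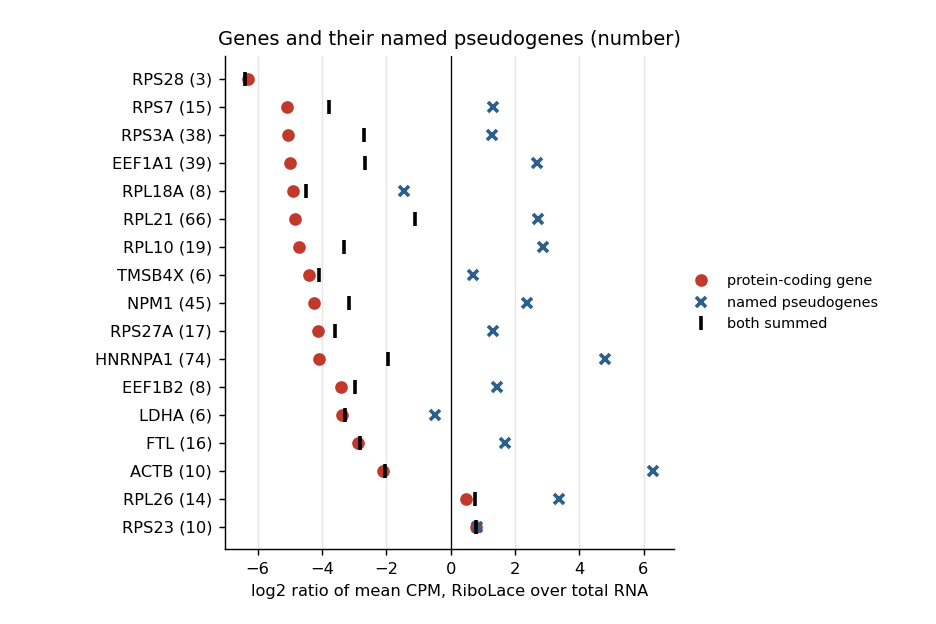
Log2 ratio of mean CPM, RiboLace over total RNA, for 17 genes (red circles), for the sum of their named pseudogenes (blue crosses) and for both together (black bars), with the number of named pseudogenes in brackets. Parents such as EEF1A1 lie near −5 with copies at 2.69, whereas RPS23 and RPL26 lie above 0; RPS28 has no cross because its copies had no read in RiboLace.

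The remaining translation machinery was also on the low side. It was read beside the 27.9% lower and 19.2% higher of all protein-coding genes. Of 52 initiation factors 33 (63.5%) were lower and 2 (3.85%) higher (median −0.97). EIF2S2, a subunit of the factor that brings the initiator tRNA, had 30.3 and 42.5 CPM against 237.4 and 267.6 CPM (−2.87 ± 0.23), and the helicase cofactor EIF4H was at −2.26 ± 0.20. EIF4G3, a large scaffold of cap binding, had 196.4 and 186.4 CPM against 112.7 and 101.1 CPM and was higher (0.85 ± 0.17). Of 39 aminoacyl-tRNA synthetases 29 were lower and 1 higher (median −0.74), with YARS at −1.30 and FARSB at −1.38. Elongation and release factors gave 7 lower and 2 higher of 23 (median −0.11), a share of lower genes of 30.4% beside 27.9% of all protein-coding genes. Mitochondrial ribosomal proteins gave 47 lower and 4 higher of 83 (median −0.75), among them MRPL37 at −1.65. Ribosome biogenesis genes were mixed, with 25 (30.1%) lower and 13 (15.7%) higher of 83, near the shares of all protein-coding genes. RRS1, needed for assembly of the large subunit, had 138.4 and 121.5 CPM against 45.7 and 46.2 CPM (1.52 ± 0.17), and UTP20, a large scaffold of the small subunit precursor, was at 1.33 ± 0.20.

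Glycolysis was the metabolic list with the lowest median, −1.83, with 21 of 23 lower and 1 higher. That is 91.3% lower, beside 27.9% of all protein-coding genes. LDHA, which turns pyruvate into lactate, had 326.1 and 289.7 CPM in RiboLace and 3067 and 3326 CPM in total RNA (−3.37 ± 0.22, adjusted p = 1.37e-11). TPI1 had 93.4 and 101.3 CPM against 861 and 979.1 CPM (−3.25 ± 0.21). PFKFB4, which sets the fructose 2,6-bisphosphate level and is among the 10 largest falls of coding genes with at least 10 reads summed over RiboLace and no overlap, had 11.2 and 8.1 CPM against 229.3 and 226.8 CPM (−4.47 ± 0.27), with no named pseudogene. The lactate carrier SLC16A1 was the member that was higher, at 162.6 and 154 CPM against 82.3 and 75.1 CPM (1.01 ± 0.20). Glycolysis genes without a named pseudogene (11 of 23) had a median of −1.32 and those with 1 or more of −2.15.
Nuclear subunits of oxidative phosphorylation, which are short, gave 54 lower and 4 higher of 78 (median −1.0). These are 69.2% and 5.13%, beside 27.9% and 19.2% of all protein-coding genes. UQCRH was at −2.12 and COX7C at −1.81, whereas COX7A2L had 268.2 and 488.2 CPM against 68.2 and 70 CPM (2.41 ± 0.21) and ATP5ME was at 2.17. The 13 mRNAs made inside mitochondria differed among themselves. MT-CO1 had 2245 and 2550 CPM in RiboLace and 7728 and 5738 CPM in total RNA (−1.49 ± 0.23). MT-ND5 had 4216 and 5466 CPM against 1665 and 1227 CPM (1.74 ± 0.24), and MT-ND6 was at 1.63. In all 5 were higher and 2 lower, the second being MT-CO2 at −0.91, which was not called without RiboLace 1 (−0.74, adjusted p = 0.0549) or total RNA 2 (−0.58, adjusted p = 0.117).
Lipid synthesis was mixed. FASN, the fatty acid synthase, had 1743 and 1325 CPM against 669.1 and 589.6 CPM (1.29 ± 0.19), and ACACA, which makes malonyl-CoA, was at 1.46 ± 0.17. FDFT1 of the sterol branch was at −1.26. In all 3 (8.82%) of 34 were higher and 14 (41.2%) lower, beside 19.2% and 27.9% of all protein-coding genes.

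Replication-dependent histones stood apart from all other protein-coding lists. Their mRNAs have no introns and end in a stem-loop instead of a poly(A) tail. Of 47 tested 46 were higher and none lower, with a median of 7.12 (7.10 with the 3 genes unread in total RNA at their bound). Together they had 9288 and 6387 CPM in RiboLace and 180.8 and 198 CPM in total RNA. HIST1H4C, coding for histone H4, had 581.3 and 322.1 CPM against 1.9 and 3.52 CPM (7.40 ± 0.35, adjusted p = 5.71e-14). HIST1H4D had 253 and 64 reads in RiboLace and 1 read in total RNA, a ratio of 8030 with an exact 95% interval of 1430 to 318000 that covers counting error only, and HIST1H3A had 89 and 30 reads against 1, a ratio of 3020 (531 to 120000). Histone variants with poly(A) tails went the other way or were not called. Of 9 tested none was higher and 4 were lower (median −0.94), among them H3F3B with 152.3 and 170.2 CPM against 487.4 and 577 CPM (−1.73 ± 0.19) and H2AFZ at −1.72. Whether total RNA libraries were made from poly(A) RNA is not stated in the labels, so tail and ribosome loading cannot be told apart for these mRNAs.

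The stem-loops of 4 histone mRNAs are printed because this is the element named above for replication-dependent histones. In the annotated 3′ UTR the letters start at base 48 of 1085 in HIST1H4E and at base 43 of 1212 in HIST2H3A. In these 2 they are thus not at the annotated end. Each is 26 bases of the transcript's 3′ UTR (GENCODE release 29, GRCh38), with the stem-loop letters in capitals. The 16 letters searched are GG, any 2 bases, CTTTT, any base, AG, any 2 bases and CC. The genes lie at chr6:26204552-26206038 (HIST1H4E, plus), chr6:26158146-26171349 (HIST1H2BD, plus), chr1:149852619-149854274 (HIST2H3A, plus) and chr6:26216975-26217483 (HIST1H2AE, plus).
HIST1H4E: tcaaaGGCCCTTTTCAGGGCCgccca
HIST1H2BD: ccaaaGGCTCTTTTAAGAGCCacgca
HIST2H3A: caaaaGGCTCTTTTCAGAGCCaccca
HIST1H2AE: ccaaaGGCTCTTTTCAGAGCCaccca
The letters, searched on the transcript strand, were found in 29 of 72 histone genes of the list, of which 37 have annotated bases past the stop codon. They were in none of the 11 variants and in 10 of 19651 other protein-coding genes (0.0509%). Of 18 tested histone genes with the letters 18 were higher (median 6.49), and of 29 without them 28 (median 7.64). The letters thus did not separate higher from lower histone genes within the list. The letters' absence says only that the annotated window lacks them.

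Large proteins made up the groups on the high side. Of 58 chromatin regulators with long proteins 38 were higher and 4 lower (65.5% beside 19.2% of protein-coding genes), with a median of 0.70. ARID2, a subunit of the PBAF remodeller, had 886.7 and 615.8 CPM in RiboLace and 37.4 and 35.7 CPM in total RNA (4.37 ± 0.22, adjusted p = 1.5e-13). CHD3, a helicase of the NuRD complex, had 3069 and 1841 CPM against 267.2 and 276.8 CPM (3.18 ± 0.25). The ATPase SMARCA4 was lower at −0.73 ± 0.19, and without total RNA 3 it was not called (−0.61, adjusted p = 0.0551). Of 45 giant motor, spectrin and similar proteins 24 (53.3%) were higher and 7 (15.6%) lower (median 0.81). Of all genes with 4800 or more coding nucleotides 54.4% were higher and 5.04% lower. The giant proteins' share of higher genes was thus near that of their length class. VPS13C had 166.1 and 269.4 CPM against 52.9 and 41.5 CPM (2.15 ± 0.22), and BIRC6 was also at 2.15. The shorter myosins MYO1F and MYO1G were lower, at −1.10 and −1.46.
Small proteins of the cytoskeleton were the counterpart. Of 31 tested 28 (90.3%, beside 27.9% of all protein-coding genes) were lower and none higher (median −1.47). TMSB4X, which sequesters actin monomers, had 137.6 and 162.1 CPM against 2958 and 3391 CPM (−4.42 ± 0.23). ACTB, the most counted gene of both total RNA libraries, had 4166 and 2814 CPM against 14430 and 15710 CPM (−2.11 ± 0.22). The 15 members without a named pseudogene had a median of −1.23.

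**Figure D4:**
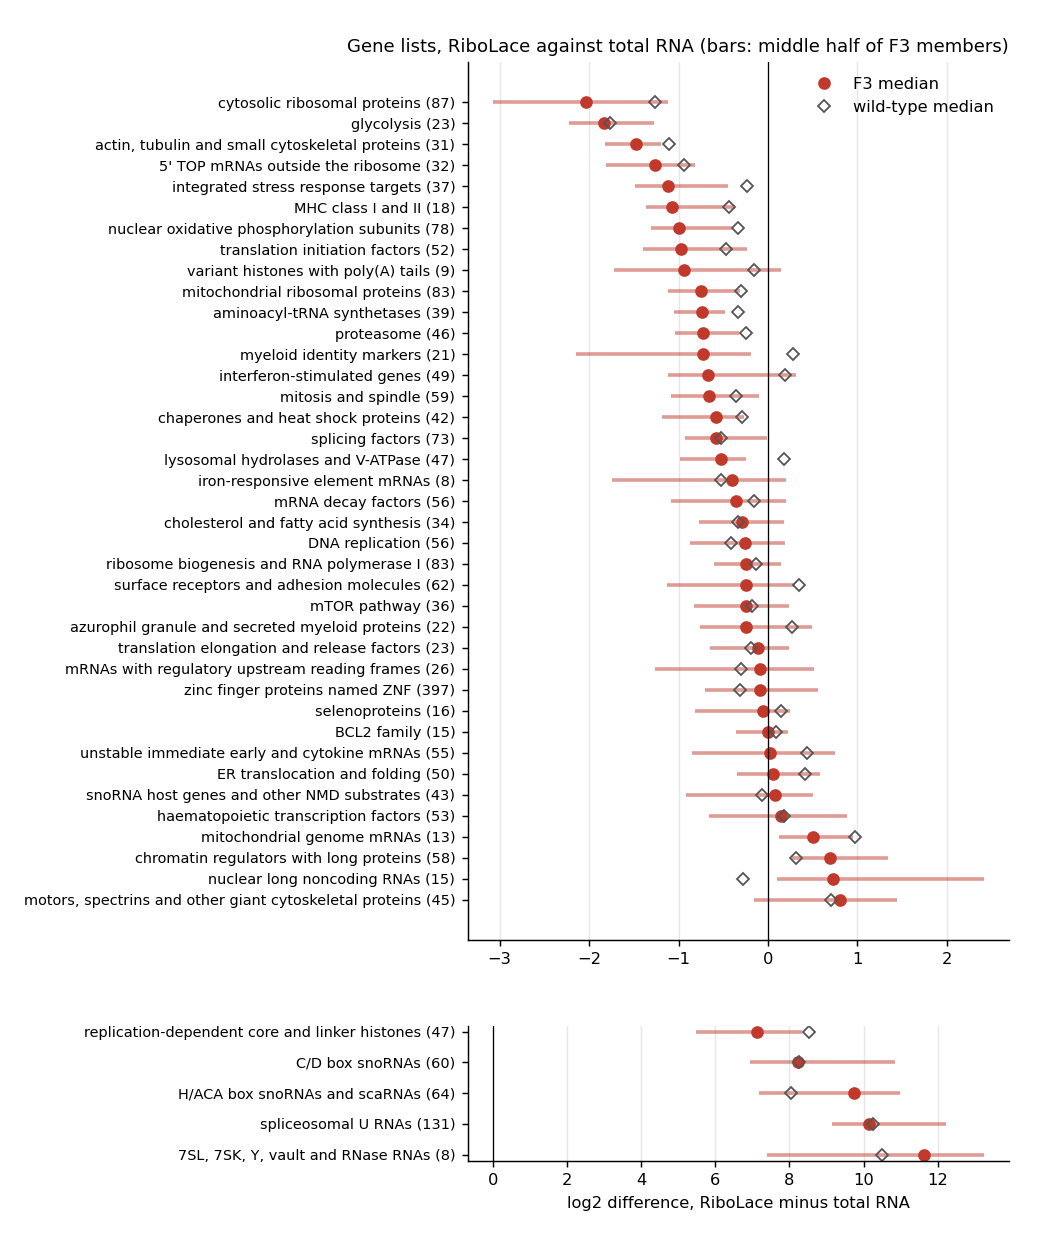
Median log2 difference of each list of genes in F3 (red circles, bars from the lower to the upper quartile of members) and in wild type (open diamonds), with the number of genes tested in brackets and small RNAs and histones on an axis of their own. Ribosomal proteins lie lowest at −2.03, giant cytoskeletal proteins at 0.81, and histones and small RNAs between 7.12 and 11.64.

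Genes of the dividing cell were read beside the 27.9% lower and 19.2% higher of all protein-coding genes. Of 59 mitosis genes 36 (61.0%) were lower and 3 higher (median −0.66), with the anaphase activator CDC20 at −1.62 and the spindle protein TPX2 at −1.57. The long spindle-pole protein ASPM had 186 and 216.8 CPM against 72.3 and 65.7 CPM (1.53 ± 0.19). Of 56 replication genes 21 (37.5%) were lower and 9 (16.1%) higher, with the licensing factors CDT1 at −1.14 and CDC6 at 1.28. Splicing factors gave 39 lower and 11 higher of 73 (median −0.58). HNRNPA1 had 66.6 and 81 CPM against 1167 and 1340 CPM, and RBM5, which promotes exon skipping, had 223.2 and 267.4 CPM against 55.1 and 50.1 CPM (2.20 ± 0.21). Zinc finger proteins named ZNF were balanced, with 70 higher and 67 lower of 397. ZNF460 (3.50) and ZNF445 (2.66) were the 2 largest rises and ZNF395 (−2.64) the largest fall among their well-read members. mRNA decay factors gave 22 lower and 8 higher of 56, with the deadenylase subunits CNOT7 and CNOT8 at −1.34 and −1.32 and the related nuclease CNOT6 at 1.27.

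Genes of protein quality control and export were described separately. Of 46 proteasome genes 26 were lower and 5 higher (median −0.73), and of 42 chaperones 25 were lower and none higher (median −0.58). HSPD1, the mitochondrial chaperonin, had 256.9 and 241.1 CPM against 1167 and 1262 CPM. DNAJB1 had 85.6 and 75 CPM against 307.2 and 526 CPM, with its total RNA replicates apart. ER translocation and folding genes gave 14 higher and 9 lower of 50 (28.0% and 18.0%, beside 19.2% and 27.9% of all protein-coding genes, median 0.06). SDF2L1 had 109.9 and 60.8 CPM against 28.9 and 30.3 CPM (1.63 ± 0.21), and TRAM1, a membrane protein of the translocon, had 313.2 and 259.3 CPM against 134.4 and 127.2 CPM (1.14 ± 0.18). The isomerase PDIA3 was lower at −1.99 ± 0.23.

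Lists of the leukocyte surface, granules and lysosome held more lower than higher genes. They were read beside the 27.9% lower and 19.2% higher of all protein-coding genes. Surface receptors gave 12 higher and 22 lower of 62 (19.4% and 35.5%). The Fc receptor FCGR2A had 1302 and 1850 CPM against 34.6 and 35.2 CPM (5.49 ± 0.23), and the chemokine receptor CXCR4 had 69.2 and 66.9 CPM against 413.4 and 442.1 CPM (−2.65 ± 0.26). MHC genes gave 9 lower and 1 higher of 18, and none of the 18 has a named pseudogene. Reads of HLA genes can match several of them. Granule and secreted myeloid proteins gave 8 lower and 2 higher of 22 (36.4% and 9.09%). LYZ, lysozyme, had 58.8 and 66.9 CPM against 287.3 and 294.1 CPM (−2.23 ± 0.27), while BPI, which kills gram-negative bacteria, had 101.2 and 89.1 CPM against 42.6 and 42.2 CPM (1.19 ± 0.19). Lysosomal hydrolases and proton pump subunits gave 22 (46.8%) lower and none higher of 47. Of 21 myeloid markers 13 (61.9%) were lower and 1, CEBPA, was higher.

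mRNAs with regulatory upstream reading frames, some of which are translated more when the initiation factor eIF2 is phosphorylated, showed no common direction. Of 26 tested 8 (30.8%) were higher and 10 (38.5%) lower, beside 19.2% and 27.9% of all protein-coding genes. ATF4, the transcription factor at the head of the integrated stress response, had 197.2 and 125.6 CPM against 967.9 and 1044 CPM (−2.59 ± 0.21, adjusted p = 1.1e-09), and it has 4 named pseudogenes. PPP1R15A, which directs the removal of that phosphate, had 52.8 and 48.6 CPM against 206.2 and 229.2 CPM (−2.09 ± 0.21). The arginine carrier SLC7A1 was higher at 1.15 ± 0.17. Transcriptional targets of the response were mostly lower, 26 of 37 (70.3%) with 2 (5.41%) higher (median −1.12). The serine synthesis enzyme PHGDH was among those lower, at −1.70. In the mTOR pathway 13 of 36 (36.1%) were lower and 4 (11.1%) higher, not far from the shares of all protein-coding genes. MTOR and its partner RICTOR were higher (0.81 and 1.49), whereas the translation repressor EIF4EBP1 was lower (−1.04). FTL, ferritin light chain, whose mRNA carries an iron-responsive element, had 541.6 and 476.1 CPM against 3472 and 3977 CPM (−2.87 ± 0.20) and has 16 named pseudogenes. Immediate early and cytokine genes were balanced, with 12 higher and 12 lower of 55 (21.8% each), near the shares of all protein-coding genes.

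Blood transcription factors gave 18 higher and 15 lower of 53 (34.0% and 28.3%, beside 19.2% and 27.9% of all protein-coding genes). RUNX2, the paralogue of RUNX1, had 3912 and 5532 CPM in RiboLace and 95.5 and 88.8 CPM in total RNA (5.68 ± 0.26, adjusted p = 3.88e-14). ETS1 had 163.5 and 87.1 CPM against 13.6 and 12.5 CPM (3.36 ± 0.38). CEBPA, a regulator of granulocytes, had 327.9 and 228.9 CPM against 114.2 and 120.7 CPM (1.27 ± 0.22). MYB had 351.2 and 332.2 CPM against 656.1 and 644.4 CPM (−0.92 ± 0.18), IRF8 was at −1.56 and LYL1 at −1.0. SPI1 (PU.1) had 252.6 and 182.3 CPM against 298.3 and 345.4 CPM (−0.54 ± 0.20, adjusted p = 0.034). Its call was not stable to the method. SPI1 was not called with RLE factors (−0.42), DESeq2 (−0.42) or limma-voom (−0.52). Nor was it called among coding genes alone (−0.43) or with at least 10 reads in each fitted library (−0.46). Without RiboLace 2, total RNA 2 or total RNA 3 its difference was −0.38, −0.56 and −0.34. The cell cycle kinase CDK6 had 630.7 and 871.1 CPM against 238.7 and 195.6 CPM (1.78 ± 0.20, adjusted p = 1.94e-07).
Several short-lived or survival mRNAs were not called. MYC had 1440 and 1149 CPM against 1523 and 1474 CPM (−0.21 ± 0.19, adjusted p = 0.373). MCL1 had 167 and 166.1 CPM against 175.9 and 176.8 CPM (−0.08 ± 0.18, adjusted p = 0.73), and its direction turned with the scaling. BCL2 was at 0.21 ± 0.19, BCL2L1 at 0.13 ± 0.30 and LMO2 at 0.06 ± 0.20. In the BCL2 family 1 of 15 was lower (BAK1 at −0.97, named after its values were seen) and 2 (13.3%, beside 19.2% of protein-coding genes) were higher, BCL2L11 (0.53 ± 0.18, adjusted p = 0.0175) and HRK. BCL2L11 was not called without RiboLace 2 (0.34, adjusted p = 0.199) or total RNA 3 (0.58, adjusted p = 0.0628). HRK had 458 and 212 reads in RiboLace and none in total RNA, and was at least 5660-fold higher. Unread in total RNA, HRK could only be higher, so its call is no independent support for a direction.

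**Figure D5:**
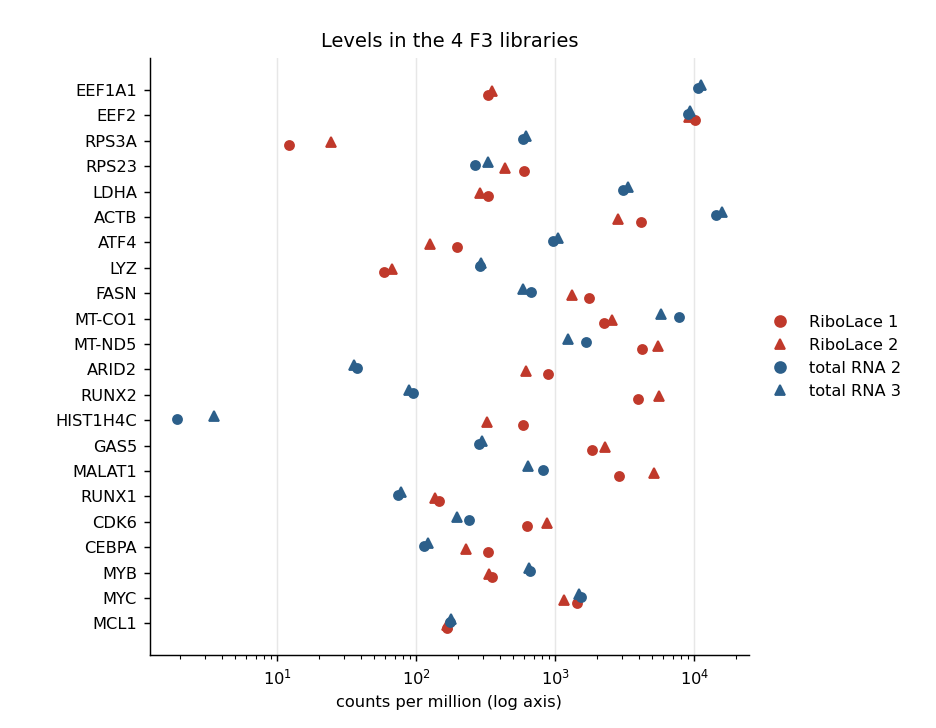
CPM (log axis) of 22 genes in the 4 F3 libraries, red for RiboLace and blue for total RNA. EEF1A1 and EEF2 lie together in total RNA and apart in RiboLace, RUNX2 and HIST1H4C lie far to the right in RiboLace, and the points of MYC and MCL1 lie close together.

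Among protein-coding genes outside the histones that had at least 10 reads in each F3 library and no overlap between the assays, the 10 largest rises are given as a description. SCML1 had 575.3 and 1039 CPM in RiboLace and 0.78 and 0.564 CPM in total RNA (10.19 ± 0.35, adjusted p = 2.24e-16), and MEMO1 had 772.5 and 595.6 CPM against 0.828 and 1.6 CPM (9.13 ± 0.32). BRSK1, a kinase of neuronal polarity, had 4866 and 2834 CPM against 9.45 and 9.4 CPM (8.68 ± 0.37). TRIO, a large exchange factor of small GTPases, was at 8.54, the ion channel HCN2 at 7.24, SIPA1L2 at 6.79, the ER oxidoreductase TXNDC5 at 6.17, TCF7L1 at 6.07, METTL7A at 5.90 and MAGI2 at 5.85. In wild type the same 10 genes had log2 differences of 4.89 to 9.74. Markers of other lineages had no common direction. Erythroid markers gave 0 higher and 3 lower of 4 tested, lymphoid markers 1 and 1 of 7. Megakaryocyte markers gave 2 higher and 1 lower of 6, adherent and stromal markers 2 and 1 of 5. Among those higher were PAX5 at 1.52 ± 0.24 and COL1A1, with 17 and 11 reads in RiboLace and none in total RNA. Unread in total RNA, COL1A1 could only be higher. The counts do not show where along a gene the reads lie, so whether these reads come from the coding part was not tested.

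The RiboLace to total RNA contrast of F3 was compared with that of wild type in the same fit. Of 15338 genes 229 (1.49%) differed between the lines, 74 (0.482%) with a higher and 155 (1.01%) with a lower contrast in F3, and 2541 differed at an unadjusted p under 0.05. Treatment labels match between the assays in wild type and not in F3, so line and control treatment cannot be told apart here. The 0 h label is on total RNA alone in both lines. Surface receptors had 11 genes of 62 with a lower contrast in F3, replication-dependent histones 10 of 47, ribosomal proteins 8 of 87, lysosomal genes 6 of 47 and stress response targets 6 of 37, and none of these lists had a gene with a higher contrast. Their medians in F3 and wild type were −0.25 and 0.35, 7.12 and 8.53, −2.03 and −1.26, −0.52 and 0.18, and −1.12 and −0.23.
LYZ had 544.5 and 281.4 CPM in wild-type RiboLace and 326.4 and 351.5 CPM in wild-type total RNA, so its log2 difference of 0.30 there lay above that of F3, a difference of −2.53 ± 0.35 (adjusted p = 0.000745). SERPINH1, a collagen chaperone, and ASS1, which makes arginine, differed likewise, by −2.33 ± 0.29 and −2.29 ± 0.28 (adjusted p = 0.000364 for both). ASS1 has 11 named pseudogenes. HIST1H4C and HIST1H2AC were higher in RiboLace in both lines but less so in F3, by −2.97 ± 0.51 and −2.31 ± 0.31. Without total RNA 3 the difference of HIST1H4C was −2.43 and not called (adjusted p = 0.0734).
MALAT1, a long noncoding RNA of nuclear speckles, had 2888 and 5117 CPM in F3 RiboLace against 810.2 and 638.3 CPM in F3 total RNA, and 436.6 and 570.5 CPM against 797 and 554.4 CPM in wild type. The contrast was 2.89 ± 0.35 higher in F3 (adjusted p = 0.000364). NEAT1, of nuclear paraspeckles, and TUG1 also had higher contrasts in F3, by 1.95 and 1.24. The list of nuclear noncoding RNAs had 8 higher and 0 lower of 15 in F3 (53.3% higher). Of all lincRNAs 28.2% were higher and of antisense RNAs 19.9%. Over all genes of other RNA types, which take in the small RNAs, the share was 51.1%. PDE4D, a phosphodiesterase of cyclic AMP, had 202.4 and 474 CPM against 18.8 and 17.2 CPM in F3 and 71.8 and 114.1 against 21.8 and 27.2 CPM in wild type, a difference of 2.28 ± 0.38. TSPOAP1 (1.90), PSD3 (1.73), ASF1B (1.70) and CSNK1G1 (1.69) followed. Without RiboLace 2 the differences of NEAT1, TUG1, PSD3 and CSNK1G1 were 1.62, 1.18, 1.39 and 1.53 and not called (adjusted p = 0.0751, 0.118, 0.146 and 0.0581). TUG1 was not called without RiboLace 1 or total RNA 3 (1.35 and 1.16, adjusted p = 0.0656 and 0.149), nor PSD3 without total RNA 2 or 3 (1.80 and 1.76, adjusted p = 0.0536 and 0.0947). MALAT1 and PDE4D were higher in F3 RiboLace 2, the shallower library, than in RiboLace 1. Without RiboLace 1, RiboLace 2, total RNA 2 or total RNA 3 of F3, 139, 29, 66 and 33 genes differed between the lines.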

How the data were processed

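The authors deposited raw read counts per gene, whole numbers for 58037 versioned Ensembl gene IDs in 14 libraries. The submitters' processing notes name STAR 2.6.0b, DESeq2 and GRCh38, with no role given. The labels' protocols describe DNase treatment and Illumina libraries for total RNA. How RiboLace libraries were made, which program counted reads, its strand setting and its handling of reads with several matches: not given in the sources used here. No column of the table was left unmapped (0).

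Symbols, RNA types and lengths came from GENCODE release 29 (57429 IDs matched), and promoters from RefSeq (GRCh38.p14; 14876 of 19723 protein-coding genes). Counts of 8 libraries (F3 and wild type, RiboLace and total RNA) entered 1 group-means fit with 4 residual degrees of freedom in edgeR 4.0.16 (R 4.3.3), after filterByExpr. Scaling was TMM, the test was quasi-likelihood F, and p-values were adjusted by Benjamini-Hochberg. The difference between lines was the interaction. The SE is the absolute log2 difference over the square root of F. CPM use the TMM-scaled sizes of that fit. The filter keeps genes read in 1 assay alone, which then had to differ. Groups at 0 were set to 3 reads over the group, and 1 to 3 reads gave a ratio with an exact 95% interval. Named pseudogenes are those called by the parent symbol, P and a number. Fits were tested on simulated data.

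The comparison, its 48 lists and the named genes were chosen with earlier results of these data known. Named were, among called genes with no overlap, the 10 largest coding rises outside histones and 10 falls with at least 10 reads, 6 noncoding rises and 4 falls, up to 2 rises and 2 falls per list with at least 20 reads in each RiboLace library, 10 genes of leukaemia, the top 2 genes of each library, and 5 genes per direction that differed between lines. EEF2, RACK1 and NEAT1 were added after their values were seen. Alternatives were RLE factors, library totals, other filters, DESeq2 1.42.0, limma-voom (limma 3.58.1), coding genes alone, each F3 library left out, the F3 libraries alone and a replicate block. Genes without named pseudogenes and genes with 10 reads in each library were added after seeing the data. Some items withheld for evaluation are not reported here.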

Additional observations from a re-analysis of the deposited data

Results flagged for a closer look

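The contrast of RiboLace to total RNA differed between F3 and wild type for 229 genes by edgeR's interaction test, and 20 of these are named in the report or here. Values are F3 minus wild-type log2 differences. Lower in F3 were HIST1H4C (−2.97), LYZ (−2.53), SERPINH1 (−2.33), HIST1H2AC (−2.31), ASS1 (−2.29), LGALS1 (−1.65), BST2 (−1.33), PHGDH (−1.28), HLA-B (−1.17) and GPX4 (−1.02). Higher in F3 were MALAT1 (2.89), PDE4D (2.28), NEAT1 (1.95), TSPOAP1 (1.90), PSD3 (1.73), ASF1B (1.70), CSNK1G1 (1.69), HNRNPA3 (1.36), CDK6 (1.26) and TUG1 (1.24). Over 236 refits of these 20 genes under other settings none turned direction, and 44 no longer passed the threshold.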

How the results depend on the processing

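Of 2365 refits of named genes, 2294 kept direction and call, 62 lost the call and 9 turned direction, in 4 genes that were not called. These were EEF2 (−0.03) and LMO2 (−0.05) with no filter, F2R (0.11) and LMO2 (−0.11) without RiboLace 1 (their ranges with 1 library left out were −0.79 to 0.11 and −0.11 to 0.17), and MCL1 with RLE factors (0.04), DESeq2 (0.04), coding genes alone (0.03), the F3 libraries alone (0.0) and without total RNA 3 (0.02). Genes higher numbered 1862 with at least 10 reads in each fitted library, 2522 among coding genes alone and 2561 to 3678 with 1 F3 library left out. Genes lower numbered 1948 with at least 10 reads, 2144 with at least a 2-fold change and 2118 to 2816 with 1 library left out. Genes that differed between lines numbered 151 with library totals, 527 with no filter, 347 with at least 10 reads, 606 with DESeq2, 40 with limma-voom, 361 among coding genes alone and 29 to 139 with 1 library left out. The ribosomal protein median was −1.78 with at least 10 reads in each fitted library, −1.86 with 10 in each F3 library, −1.90 with DESeq2, −1.87 with limma-voom, −1.29 without named pseudogenes and −2.02 to −1.78 with 1 library left out. The median under 300 coding nucleotides was −0.37 without named pseudogenes and −0.91 to −0.47 with 1 library left out. At 4800 or more it was 0.89 with RLE factors, DESeq2 or coding genes alone, 0.60 with no filter, 0.85 with at least 10 reads, 0.82 for the F3 libraries alone and 0.71 to 0.95 with 1 library left out. For other RNA types it was 2.68 (RLE), 0.0 (no filter), 1.67 (at least 10 reads), 2.73 (DESeq2), 2.84 (limma-voom), 1.67 (F3 libraries alone), 1.64 (10 reads in each F3 library) and 0.94 to 6.23 (1 library left out). The cause was not tested. The all-gene median was −0.02, and 0.09 with RLE factors, 0.11 with DESeq2 and −0.28 without RiboLace 1. With a replicate block by title number 3958 genes were higher, 3411 lower and 263 differed between lines. Deviations of same-numbered libraries were hardly correlated over genes (r = −0.077 in F3 and −0.087 in wild type). With 2 libraries per group and few RiboLace reads, this check cannot tell whether they were paired. The RiboLace depth limits genes of low level most.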
